A study of Mus musculus with 2 samples.

Results

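Genes of peptide signalling between nerves and innate lymphoid cells (ILCs) were examined in single cells of newborn and young mouse skin: Calca, Ramp1, Calcrl, Nmur1, Vipr2 and Penk. They are the gene of calcitonin gene-related peptide (CGRP), the genes of its receptor subunits and other neuropeptide genes of ILCs, taken as a list of names. Of these 6 genes, 5 had counts among the 18786 genes measured, and Nmur1, the neuromedin U receptor gene, was not analysed here. ILCs are lymphocytes that carry no rearranged antigen receptor. The labels describe a sort for CD45+, Lin-, Thy1.2+ cells of collagenase-digested C57/BL6 skin and capture with a 10x Genomics 5' kit, with 1 library from postnatal day 1 and 1 from postnatal day 14. The labels name no genotype or treatment, and do not say how many mice were pooled.

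The cell names carry a suffix that divides the 5246 cells into set 2 and set 1. No label ties a suffix to a day, so the days were not compared, and the values below describe these sets of cells with no replicate error. After cells with over 10% mitochondrial counts were left out, there were 3508 cells in set 2 (median 4849 UMIs, tags that count individual RNA molecules) and 1441 in set 1 (median 10683 UMIs). The sets shared 4 barcodes. All 13 listed markers of group 2 ILCs (ILC2s) were present, summing to 6646 counts per 1000000 UMIs (CPM) in set 2 and 5159 CPM in set 1, beside 547 and 420 CPM of 12 markers of group 3 ILCs (ILC3s) in set 2 and set 1. Of 7 markers of alpha beta T cells, 6 were measured and summed to 193 CPM in set 2, against 104 CPM in set 1, and of 6 markers of gamma delta T cells, 3 were measured and summed to 264 CPM in set 2, against 117 CPM in set 1. Markers of sensory neurons, which are known for making CGRP, summed to 0.55 CPM in set 2, against 2.48 CPM in set 1, with 4 and 2 of 7 genes at 0. Keratinocyte markers summed to 15.5 CPM in set 2, against 120 CPM in set 1, and fibroblast markers to 3.72 and 69.2 CPM in the same order of sets.

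CGRP is a peptide made by splicing of the Calca transcript, which also encodes calcitonin, and counts per gene do not tell the transcripts apart. Its receptor pairs Calcrl, a G protein-coupled receptor, with the accessory protein Ramp1, and signals through cyclic AMP (cAMP). Calcrl with Ramp2 or Ramp3 forms receptors for adrenomedullin. In mouse ILC2s, CGRP, neuromedin U and vasoactive intestinal peptide (VIP) are known to modulate the release of type 2 cytokines such as IL-5 and IL-13. Vipr2 encodes a VIP receptor, and Penk encodes the precursor of the enkephalins, opioid peptides.

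In the RefSeq annotation of GRCm38.p6, Calca lies at chr7:114625981-114636910 on the minus strand, Ramp1 at chr1:91179822-91225196 on the plus strand and Calcrl at chr2:84330626-84425405 on the minus strand. Vipr2 lies at chr12:116077420-116148637 and Penk at chr4:4133536-4138815. The ligand and both receptor subunit genes are shown by the sequence around a RefSeq start, 250 bases before it and 50 from it, because genes of the cAMP pathway are described beside them below. The windows are chr7:114636308-114636607, chr1:91179572-91179871 and chr2:84425217-84425516, written 5′ to 3′ on the strand of the gene. Capitals mark TGACG, the first bases of the cAMP response element TGACGTCA, or its reverse complement CGTCA. They also mark the GATA factor motif AGATAA, or that motif's reverse complement, which reads TTATCT. For Calca and Calcrl the start used is not the outermost start of the gene.

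Calca: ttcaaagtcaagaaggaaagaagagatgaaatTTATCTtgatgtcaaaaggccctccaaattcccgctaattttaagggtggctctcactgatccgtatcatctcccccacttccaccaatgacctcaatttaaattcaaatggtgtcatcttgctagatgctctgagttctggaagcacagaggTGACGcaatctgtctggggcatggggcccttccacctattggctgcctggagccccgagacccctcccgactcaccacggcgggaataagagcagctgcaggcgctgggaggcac
Ramp1: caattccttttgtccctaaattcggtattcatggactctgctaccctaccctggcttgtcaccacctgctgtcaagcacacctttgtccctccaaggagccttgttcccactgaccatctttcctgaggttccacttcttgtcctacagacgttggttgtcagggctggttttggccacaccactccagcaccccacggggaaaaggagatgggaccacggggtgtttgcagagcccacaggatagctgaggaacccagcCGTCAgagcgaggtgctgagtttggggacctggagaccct
Calcrl: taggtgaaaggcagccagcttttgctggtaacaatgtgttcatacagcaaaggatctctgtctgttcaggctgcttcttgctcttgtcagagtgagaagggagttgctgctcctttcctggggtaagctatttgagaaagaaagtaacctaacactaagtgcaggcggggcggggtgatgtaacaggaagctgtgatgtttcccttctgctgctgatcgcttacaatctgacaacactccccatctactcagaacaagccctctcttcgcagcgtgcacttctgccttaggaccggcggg

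Calca held TGACG at position -65 and a reversed GATA motif, TTATCT, at position -218, counted from the start as 0, and Ramp1 held CGTCA at position 10. The Calcrl window held none of these motifs, and none of the 3 windows held the whole TGACGTCA. On either strand, TGACG was found in 20.8% of 32851 RefSeq promoter windows of this length, AGATAA in 11.2% and TGACGTCA in 1.79%. These matches describe letters in a window and are no measure of binding.

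Calca, the ligand gene, was lower in set 2 than in set 1, and Ramp1, the receptor's accessory subunit gene, was higher. Calca had 2802 UMIs in set 2 and 10395 UMIs in set 1, which is 155 CPM (95% interval 150 to 161) in set 2, against 629 CPM (617 to 642) in set 1. The ratio of set 2 over set 1 was 0.247 (0.237 to 0.257), a log2 ratio of CPM + 1 of -2.01. All intervals here are exact, at the 95% level, and cover counting error only.

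The share of cells with a Calca UMI was 15.9% (14.7 to 17.2) in set 2 and 54.1% (51.5 to 56.7) in set 1. Cells of set 1 were deeper, so each cell was also thinned to 4108 UMIs, which left out 1174 shallower cells of set 2 and 63 of set 1. At that equal depth the share was 16.8% (15.3 to 18.4) in set 2 and 45.5% (42.8 to 48.2) in set 1. The order of the sets was thus the same at equal depth.

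Calca was spread unevenly over the cells that held it. In set 2, 69 cells (1.97%) held 10 or more Calca UMIs and the top cell held 71, whereas in set 1, 319 cells (22.1%) held 10 or more and the top cell held 245. The 1% of cells with most Calca held 32.3% of its UMIs in set 2 and 15.6% in set 1. Leaving out the top cell of each set gave 152 CPM in set 2, against 616 CPM in set 1, so no single cell set the level.

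Ramp1 had 3626 UMIs in set 2 and 323 UMIs in set 1, or 201 CPM (195 to 208) in set 2, against 19.6 CPM (17.5 to 21.8) in set 1. Its ratio was 10.3 (9.18 to 11.6), a log2 ratio of 3.30. A Ramp1 UMI was found in 45.2% of cells of set 2 and 11.7% of set 1, and at equal depth in 43.9% (41.8 to 45.9) of set 2 and 6.60% (5.35 to 8.05) of set 1. The median positive cell held 2 Ramp1 UMIs in set 2 and 1 in set 1, and the top cell held 29 in set 2 and 12 in set 1.

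Calcrl, the receptor's signalling subunit gene, stood between them. It had 841 UMIs in set 2 and 404 in set 1, or 46.7 CPM (43.6 to 49.9) in set 2, against 24.5 CPM (22.1 to 27.0) in set 1. The ratio of 1.91 (1.69 to 2.15) had an interval that spans 2-fold, and its log2 ratio of CPM + 1, 0.90, passed 2-fold with TMM scaling (1.05). The unthinned share of positive cells ran against these levels, at 16.5% in set 2 and 18.4% in set 1, and no order is read from it; at equal depth it was 15.3% in set 2 and 8.64% in set 1.

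Vipr2 and Penk were rare. Vipr2 had 21 UMIs in 19 cells of set 2 and 5 UMIs in 5 cells of set 1, or 1.16 CPM (0.72 to 1.78) in set 2, against 0.30 CPM (0.10 to 0.71) in set 1, and no cell held more than 2. Penk had 73 UMIs in 9 cells of set 2 and 72 UMIs in 36 cells of set 1, or 4.05 CPM (3.17 to 5.09) in set 2, against 4.36 CPM (3.41 to 5.49) in set 1. One cell of each set carried much of this, with 61.6% of the Penk UMIs of set 2 and 40.3% of those of set 1. Without that cell Penk was at 1.55 CPM in set 2, against 2.61 CPM in set 1.

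The Penk-rich cell of set 2 held 45 Penk UMIs, lay in the cycling cluster and held 21 UMIs of the proliferation marker Mki67. Its counterpart in set 1 held 29 Penk UMIs together with 34 UMIs of Il5 and 22 of Il13, both ILC2 cytokines. Neither held a Calca UMI. Over all cells, Penk and Calca met in 0 cells of set 2, where 1.43 were expected from their shares, and in 22 cells of set 1, where 19.5 were expected.

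Among all 12026 genes with at least 20 UMIs, 670 (5.57%) were at least 2-fold higher in set 2 by CPM + 1 and 950 (7.90%) at least 2-fold lower. Of the 5 genes with counts, Ramp1 was past 2-fold higher and Calca past 2-fold lower. Calcrl, Vipr2 and Penk were within 2-fold on that scale. The plain CPM ratio of Vipr2 was 3.85 (1.41 to 13.1), an interval that spans 2-fold, and its levels are near the 1 CPM added. The median log2 ratio of the 5 genes was 0.73, beside -0.13 over all genes. That median is the value of Vipr2, from 21 UMIs in set 2 and 5 in set 1, and Vipr2 was at 0.12 with CPM + 10. The 5 genes ranged from -2.01 for Calca to 3.30 for Ramp1, so the median describes no shared shift.

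**Figure D1:**
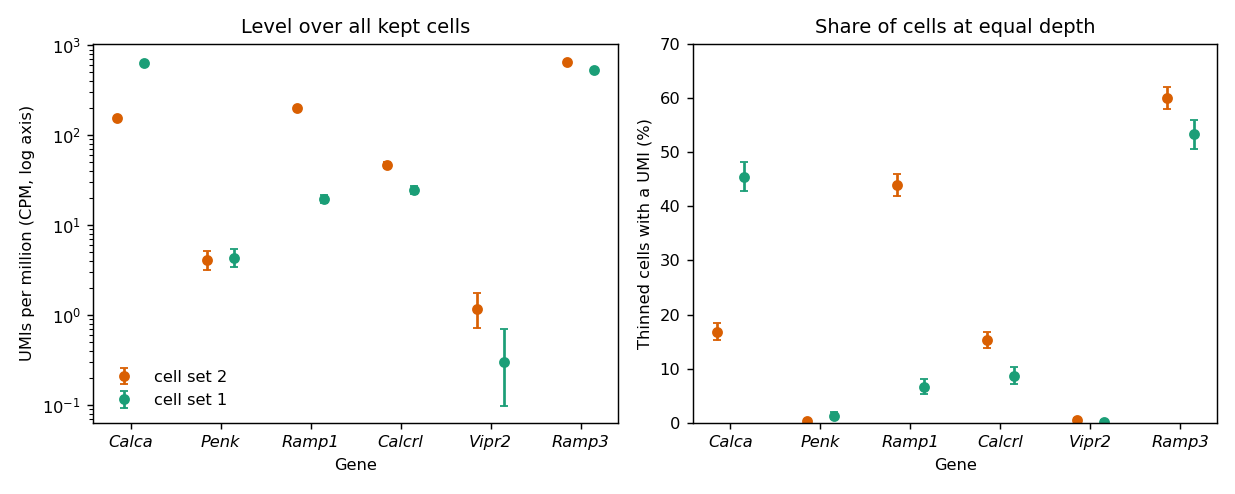
Level (left, CPM on a log axis) and share of cells with a UMI at equal depth (right, percent of thinned cells) of the 5 counted genes and Ramp3, with set 2 in orange and set 1 in green. Points are sets and bars are exact 95% counting intervals; Calca is lower in set 2 (155 against 629 CPM) and Ramp1 higher (201 against 19.6 CPM), while the Penk intervals overlap.

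Both differences were also seen within cells of either sex. In cells with Xist and no Y-linked UMI, Calca was at 160 CPM in set 2, against 592 CPM in set 1, and Ramp1 at 221 CPM in set 2, against 24.1 CPM in set 1. In cells with Y-linked UMIs and no Xist, Calca was at 180.0 CPM in set 2, against 649 CPM in set 1, and Ramp1 at 186 CPM in set 2, against 14.0 CPM in set 1.

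The cells were clustered with the 6 genes left out of the variable genes, so that these did not form the clusters, and clusters are called by number. In set 2, the 5 clusters with at least 50 cells were cluster 0 (2084 cells, led by Hopx, Cd70 and Ccr7), cluster 1 (827 cells, led by Hspa1b and Hspa1a, which encode heat shock proteins), cluster 3 (357 cells), the cycling cluster 4 (117 cells) and cluster 6 (87 cells). In set 1 they were cluster 2 (756 cells, led by Slc38a4 and Igsf5), cluster 3 (175 cells), the cycling cluster 4 (334 cells) and cluster 5 (154 cells, led by Il22, Tyrobp and Fcer1g). The largest cluster was thus a different one in each set, cluster 0 in set 2 and cluster 2 in set 1. Cells of cluster 3 held Cd3g, a T cell receptor complex gene, at 1021 CPM in set 2, against 851 CPM in set 1. Gata3, the ILC2 transcription factor gene, was there at 261 CPM in set 2, against 237 CPM in set 1. Other clusters also held Cd3g, which is in neither T cell list above. In thinned cells without Calca, Cd3g was at 537 CPM in 73.0% of cells of set 2. In those of set 1 it was at 532 CPM in 67.1% of cells.

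Calca was concentrated in clusters 2 and 4 of set 1. Cluster 2 of set 1 had 887 CPM (867 to 907) with 69.6% of cells positive, and cycling cluster 4 had 520.5 CPM (502 to 540) with 60.8% positive. Within the same set, cluster 5 had 85.1 CPM (70.02 to 103) and cluster 3 had 42.4 CPM (32.0 to 55.2). Of the Calca UMIs of set 1, cluster 2 held 70.3%, cluster 4 held 27.7%, cluster 5 held 1.07% and cluster 3 held 0.53%.

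In set 2, cluster 0 held 81.5% of the Calca UMIs at 205 CPM (197 to 214), with 20.3% of cells positive. Cycling cluster 4 had 91.0 CPM (74.7 to 110), cluster 1 had 70.5 CPM (62.5 to 79.3) and cluster 3 had 17.8 CPM (11.5 to 26.3). Cluster 6 had 748 CPM (596 to 926), but from 84 UMIs in 13 cells with a median of 1177 UMIs. That median is low for the set, and the nuclear RNA Malat1 made up 125098 CPM there, against 21800 CPM in cluster 0.

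Cluster 4 held cycling cells of both sets, and whether these are otherwise of the same kind in each set was not tested. There Calca was at 91.0 CPM in set 2, against 520.5 CPM in set 1, and Ramp1 at 165 CPM (142 to 189) in set 2, against 9.75 CPM (7.33 to 12.7) in set 1. In cluster 3, which was also found in both sets, Ramp1 was at 363 CPM (332 to 396) in set 2, against 40.1 CPM (29.97 to 52.6) in set 1. In set 1 these Ramp1 levels rest on 54 UMIs in cluster 4 and 52 UMIs in cluster 3.

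Over the clusters of set 2, Ramp1 was highest in cluster 3 and lowest in the RNA-poor cluster 6. Behind cluster 3 came cluster 1 with 223 CPM (209 to 238) and cluster 0 with 179 CPM (171 to 187), whose interval overlaps that of cycling cluster 4. Cluster 6 held 2 Ramp1 UMIs. In set 1 the highest level, 109 CPM (91.7 to 128), was in cluster 5, where 39.6% of cells were positive, while cluster 2 had 8.98 CPM (7.05 to 11.3).

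In set 1, Calca and Ramp1 ran in opposite directions between clusters 2 and 4 on one side and clusters 3 and 5 on the other. Clusters 2 and 4, high in Calca, were lowest in Ramp1, and their Ramp1 levels of 8.98 and 9.75 CPM did not differ beyond counting error. Cluster 5 and cluster 3, low in Calca, had more Ramp1, and of these, cluster 5 had more of both genes. Calcrl varied little beside this, from 15.4 to 29.8 CPM over the clusters of set 1 and from 30.6 to 50.02 CPM over those of set 2 other than cluster 6, which had 80.1 CPM (36.6 to 152).

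Free RNA from broken cells gives UMIs to cells that do not make a gene. Krt14, a keratinocyte gene, was at 40.8 to 62.9 CPM in all 4 clusters of set 1 and in 31.4 to 47.9% of their cells, but at 0.84 to 8.90 CPM in the clusters of set 2. In set 1, Calca and Ramp1 in cluster 3, Ramp1 in clusters 2 and 4 and Calcrl in all 4 clusters lay below the Krt14 of the same cluster, and the part of free RNA in these levels was not tested. Cluster 2 had 1.34 Calca UMIs per Ramp3 UMI, and cluster 3 had 55 Calca UMIs and 1 Ramp3 UMI. The source of the Calca UMIs of cluster 3 was not tested.

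**Figure D2:**
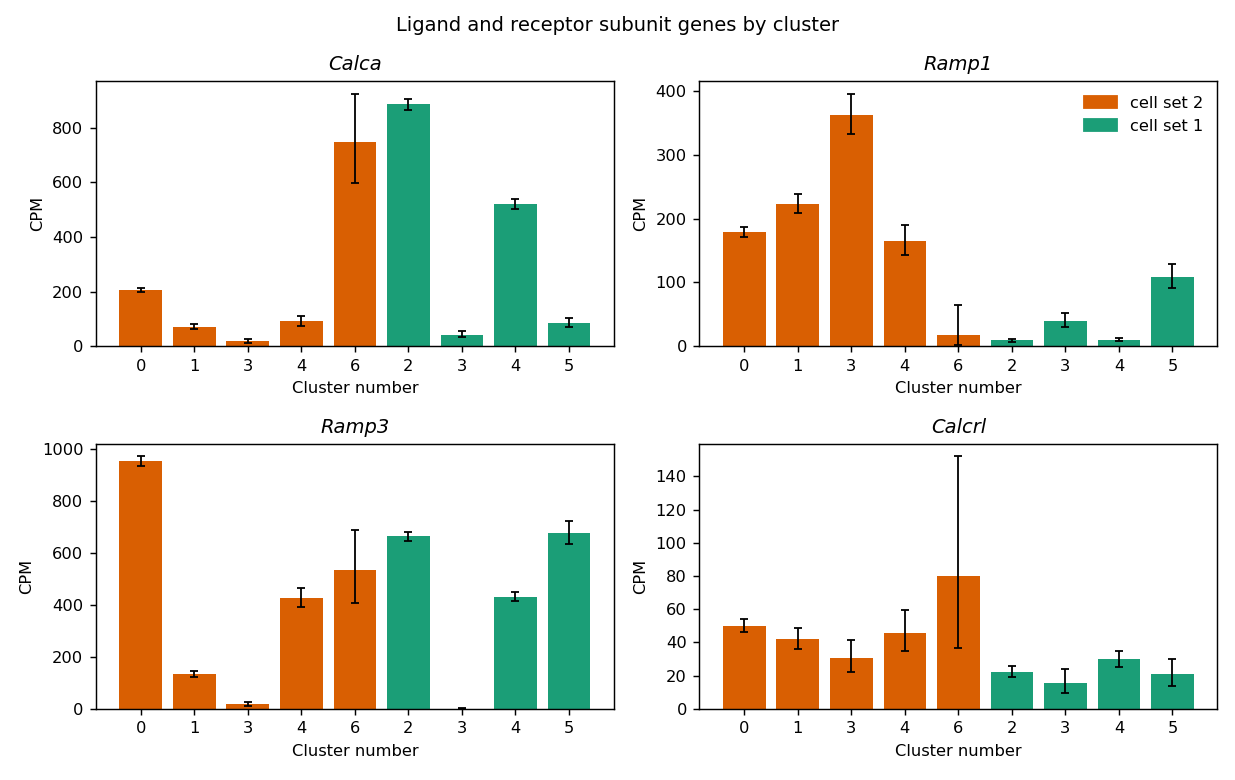
CPM of Calca, Ramp1, Ramp3 and Calcrl by cluster, for clusters with at least 50 cells of a set, with set 2 in orange at the left and set 1 in green at the right. Bars are CPM over the summed cells and whiskers are exact 95% counting intervals; Calca peaks in cluster 2 of set 1 (887 CPM) and Ramp1 in cluster 3 of set 2 (363 CPM).

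Ligand and receptor were then read in the same cells. Calca and Ramp1 met about as often as their shares give in set 2, and less often in set 1, a difference between the sets that was not tested. In set 2 they met in 266 cells, against 252 expected from the product of their shares, a ratio of 1.05. In set 1 they met in 48 cells against 91.5 expected, a ratio of 0.525. Deeper cells catch more genes, so the expectation was also built within 10 bins of depth, which gave 0.974 in set 2 and 0.528 in set 1.

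Read by cell, 47.6% (43.4 to 51.8) of Calca-positive cells and 44.7% (42.9 to 46.5) of Calca-negative cells of set 2 held Ramp1. In set 1 these shares were 6.15% (4.57 to 8.08) of Calca-positive cells and 18.3% (15.4 to 21.5) of Calca-negative cells. Ramp1 CPM was at 191 in Calca-positive and 204 in Calca-negative cells of set 2, the reverse order of the shares, whose intervals overlapped, and at 7.07 in Calca-positive and 39.6 in Calca-negative cells of set 1. The Calca-positive cells of set 1 were the deeper ones, with a median of 12259 UMIs, against 8774 in Calca-negative cells, and still held less Ramp1.

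Part of the low overlap in set 1 lay between clusters. With the expectation taken within clusters and depth bins, the ratio was 1.02 in set 2 and 0.704 in set 1. Cluster 2 of set 1 had 33 cells with both genes, against 35.5 expected, a ratio of 0.930. Fewer than expected were found in cycling cluster 4 (11 against 19.4) and in cluster 5 (1 against 8.32).

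Cluster 5 of set 1 held Calca and Ramp1 mostly in different cells. Of its 154 cells, 21 held Calca, 61 held Ramp1 and 1 held both. The Ramp1-positive cells had Il22, an ILC3 cytokine, at 1480 CPM in 31.1% of cells and the cells with neither gene at 1699 CPM in 26.0%, and the Calca-positive cells had it at 145 CPM in 4 of 21 cells. One cell with neither gene held 475 of the 950 Il22 UMIs of that group, and 1 Ramp1-positive cell held 248 of 875. Il23r, an ILC3 receptor gene, did not follow Il22. It was at 69.3 CPM in Ramp1-positive cells, 75.1 CPM in cells with neither and 81.4 CPM in Calca-positive cells, with overlapping intervals. Gata3 was at 94.7, 87.6 and 81.4 CPM in the same order, also with overlapping intervals. Fcer1g, a signalling adaptor of innate cells, was at 827 CPM in Ramp1-positive cells, 647 CPM in cells with neither and 361 CPM in Calca-positive cells. With 21 Calca-positive cells these values are imprecise.

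Calcrl, in contrast, was found with Calca about as often as depth gives. Both met in 115 cells of set 2, against 92.4 expected, and in 172 cells of set 1, against 143 expected, and within depth bins the ratios were 1.08 in set 2 and 1.07 in set 1. Ramp1 and Calcrl, the subunits of the CGRP receptor, met in 310 cells of set 2 against 262 expected and in 29 cells of set 1 against 31.1 expected. Within depth bins those ratios were 1.05 in set 2 and 0.929 in set 1.

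UMIs of Ramp1 and Calcrl without a Calca UMI were found in 245 cells (6.98%) of set 2 and 17 cells (1.18%) of set 1. UMIs of Calca, Ramp1 and Calcrl together were found in 65 cells (1.85%, 1.43 to 2.36) of set 2 and 12 cells (0.83%, 0.43 to 1.45) of set 1. Calca with neither subunit was found in 243 cells (6.93%) of set 2 and 572 cells (39.7%) of set 1. At equal depth the triple-positive cells numbered 27 (1.16%) in set 2 and 1 (0.073%) in set 1. Ramp1 and Calcrl without Calca were then found in 135 cells (5.78%) of set 2 and 4 (0.29%) of set 1. Calca with neither subunit was found in 196 cells (8.40%) of set 2 and 560 (40.6%) of set 1. The number expected from the shares of the single genes was not computed for these classes, so they are counts and are not read as cell types. A cell with no UMI of a gene may still express it, and receptor protein was not measured.

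**Figure D3:**
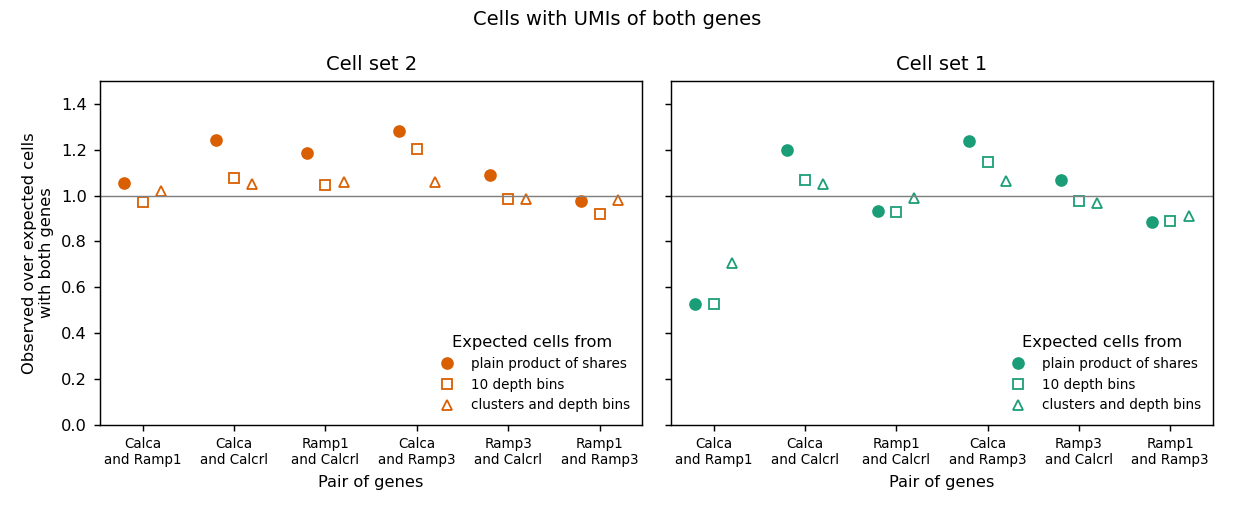
Observed over expected number of cells with UMIs of both genes of a pair, in set 2 (left, orange) and set 1 (right, green), on a scale where 1 (grey line) is the expectation from the product of shares (circles), from shares within 10 depth bins (squares) or within clusters and depth bins (triangles). Calca and Ramp1 lie at 1.05, 0.974 and 1.02 in set 2 and at 0.525, 0.528 and 0.704 in set 1, and the other pairs lie between 0.88 and 1.28.

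The other accessory proteins that Calcrl can pair with were read beside Ramp1. Ramp3 was at 655 CPM (644 to 667) in set 2, against 530 CPM (519 to 541) in set 1, a ratio of 1.24. Ramp2, which also marks endothelial cells, had 5 UMIs in set 2 and 27 in set 1, beside 11.8 CPM of 6 endothelial markers in set 2 and 31.5 CPM in set 1. Capture differs between genes, so only the change in their ratio is read: there were 3.26 Ramp3 UMIs per Ramp1 UMI in set 2 and 27.1 in set 1.

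That ratio also varied between clusters. In set 2 it was 5.32 in cluster 0, 2.60 in cycling cluster 4, 0.60 in cluster 1 and 0.051 in cluster 3, and in set 1 it was 73.9 in cluster 2, 44.1 in cycling cluster 4 and 6.22 in cluster 5. The ratios of clusters 2 and 4 of set 1 divide by 74 and 54 Ramp1 UMIs, at levels where the part of free RNA was not tested. Cells with Ramp3 and Calcrl but no Ramp1 made up 4.59% of set 2 and 11.2% of set 1, and cells with Ramp1 and Calcrl but no Ramp3 made up 3.11% of set 2 and 0.69% of set 1. At equal depth these shares were 5.14% in set 2 and 4.06% in set 1 for Ramp3, and 2.70% in set 2 and 0.15% in set 1 for Ramp1. The intervals of the Ramp3 class at equal depth overlapped, at 4.28 to 6.12 in set 2 and 3.08 to 5.25 in set 1. No order of the sets is thus read from the Ramp3 class, while that of the Ramp1 class was the same at equal depth.

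Calca and Ramp3 were found together more often than their shares give. They met in 411 cells of set 2 against 320.1 expected and in 614 cells of set 1 against 496 expected. The ratios were 1.201 in set 2 and 1.15 in set 1 within depth bins, and 1.06 in each set within clusters and depth bins.

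Within the largest cluster of each set, thinned cells were ordered by their Calca UMIs in steps of 0, 1 or 2, 3 to 9, and 10 or more. Ramp3 over these steps in cluster 0 of set 2 was at 944, 1026, 995 and 938 CPM, which do not differ beyond counting error at the ends. In cluster 2 of set 1 it was at 447, 549, 787 and 1034 CPM. Ramp1 stayed between 159 and 208 CPM in cluster 0 of set 2 and between 4.89 and 12.0 CPM in cluster 2 of set 1, with overlapping intervals in each.

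Crem, a transcription factor gene known to be induced by cAMP, was higher at each step of Calca in both clusters. Its levels were 840, 989, 1115 and 1274 CPM in cluster 0 of set 2, and cluster 2 of set 1 had 331, 408, 582 and 664 CPM. Intervals of some neighbouring steps overlap, and those of the first and last steps do not. Areg, another gene known to be induced by cAMP, showed no such order. It was at 1120, 886, 1667 and 1045 CPM over the steps of cluster 0 of set 2. In cluster 2 of set 1 it was at 812, 727, 817 and 597 CPM. Gata3, which is in no cAMP list here, was at 707, 782, 827 and 1210 CPM in cluster 0 of set 2. Its levels in cluster 2 of set 1 were 689, 777, 842 and 800 CPM. Il5 was at 304 CPM in Calca-negative cells and 450 to 566 CPM in the other steps of cluster 0 of set 2. In cluster 2 of set 1 it was at 91.7 CPM in Calca-negative cells and 229 to 350 CPM in the other steps. Il13, another ILC2 cytokine, showed no such order, with 375, 421, 333 and 637 CPM over the steps of set 2 and 310.3, 273, 190 and 243 CPM over those of set 1. The last step held 34 cells in set 2 and 73 in set 1.

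**Figure D4:**
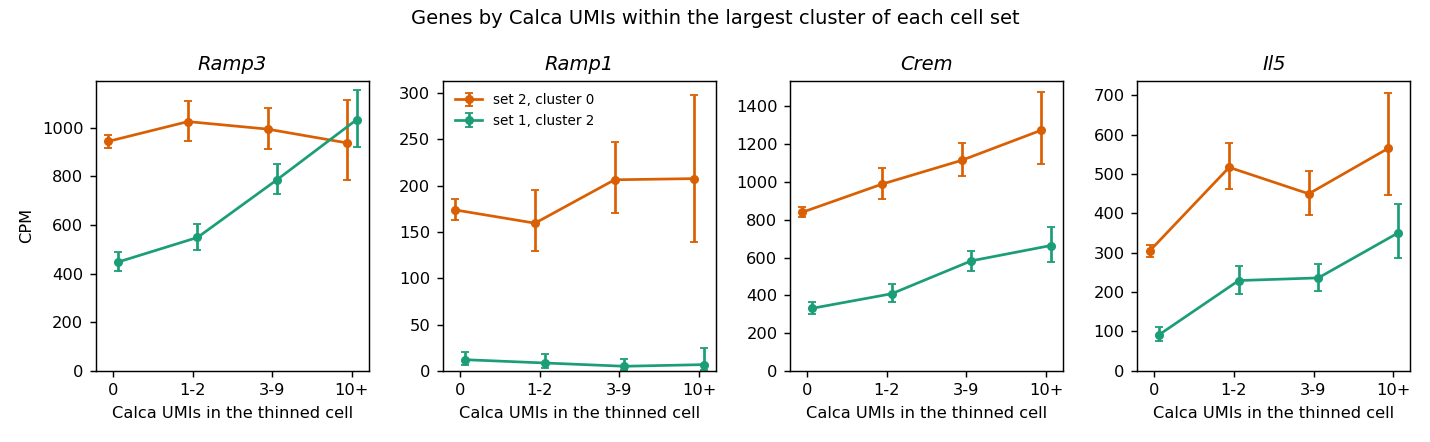
CPM of Ramp3, Ramp1, Crem and Il5 in thinned cells ordered by their Calca UMIs, within cluster 0 of set 2 (orange) and cluster 2 of set 1 (green), with exact 95% counting intervals. Crem is higher at each step in both clusters (840 to 1274 CPM in set 2 and 331 to 664 CPM in set 1), Ramp3 only in cluster 2 of set 1, and Ramp1 in neither.

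Genes whose pattern over cells was most like that of a given gene were taken by Pearson correlation of log-scaled thinned counts, over 2334 cells of set 2 and 1378 of set 1. These are descriptions within 1 cell set each, whose cells share their processing. For Calca in set 2 the 8 highest were Crem (r = 0.17), Cxcr6, Icos, Dgat1, Il5, Eif1, Ptp4a1 and Fth1 (0.13), all weak. In set 1 they were Ldha (0.41), a glycolytic enzyme gene, Sub1, Slc25a3, Igsf5, Ramp3 (0.33), Ctla2a, Icos and Emb (0.31), and the lowest were Fcer1g (-0.26), Actb and Hspa1a.

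For Ramp1 in set 2 the highest were Ly6g5b (0.21), Rnf208, Tnfrsf4, Bhlhe40, Sdc4, Timp2, Cd74 and Prr29 (0.17), and the lowest were Ifngr1 (-0.20), Icos and Emb. In set 1 they were Fcer1g (0.39), Nrgn, Ckb, Tyrobp, Cd7, Selenop, Cd160 and Acpp (0.26), and the lowest were Hlf (-0.24), Icos and Gata3 (-0.17). Icos, a costimulatory receptor, stood among the highest for Calca and the lowest for Ramp1 in both sets. Calca against Ramp1 had r = -0.02 in set 2 and -0.15 in set 1.

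Calca-positive cells also had more Il5. It was at 398 CPM in Calca-positive and 205 CPM in Calca-negative cells of set 2, and at 207 CPM in Calca-positive and 46.8 CPM in Calca-negative cells of set 1. In set 1 the genes with the next highest ratios were Hs3st1, Igsf5 and Rab27b, the gene of a small GTPase of vesicle release, at 97.5 CPM in Calca-positive and 32.9 CPM in Calca-negative cells. In set 2 Ifng and Il17a ranked above Il5. Ifng was at 22.7 CPM in Calca-positive and 2.99 CPM in Calca-negative cells, with 58.8% of its UMIs in 1 cell, and Il17a at 24.2 CPM in Calca-positive and 6.45 CPM in Calca-negative cells, with 18.9% of its UMIs in 1 cell.

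Ramp1-positive cells of set 1 had Il22 at 754 CPM, against 85.0 CPM in Ramp1-negative cells, and Fcer1g at 415 against 46.4 CPM. The whole list of 12 ILC3 markers summed to 1330 CPM in Ramp1-positive and 296 CPM in Ramp1-negative cells of set 1. In those of set 2 it summed to 588 and 503 CPM. Il22 is in that list, so these sums partly repeat it. In set 1 it gave 1501 of the list's 2647 UMIs in Ramp1-positive and 1235 of 4293 in Ramp1-negative cells. The 13 ILC2 markers ran the other way, at 4255 CPM in Ramp1-positive and 5283 CPM in Ramp1-negative cells of set 1. For Calca, the ILC2 list stood at 5823 CPM in positive and 4090 CPM in negative cells of set 1, and the ILC3 list at 163 and 835 CPM. Other lists also stood higher in Ramp1-positive than in Ramp1-negative cells of set 1, with dendritic cell markers at 82.9 and 17.0 CPM, mast cell markers at 364 and 167 CPM, endothelial markers at 63.8 and 27.1 CPM and Merkel cell markers at 11.6 and 3.24 CPM. The part of these cell types in the result was not tested. Of the mast cell markers, Cma1 had 336 UMIs in Ramp1-positive and 346 in Ramp1-negative cells of set 1. In all, 44.4% of these Cma1 UMIs lay in 1 cell, so the mast cell values depend much on that cell.

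In set 2 the genes that marked Ramp1-positive cells were others. Tff1, a trefoil peptide gene, was at 39.7 CPM in Ramp1-positive and 1.47 CPM in Ramp1-negative cells. Tnfrsf4, the gene of the costimulatory receptor OX40, was at 158 CPM in Ramp1-positive and 72.9 CPM in Ramp1-negative cells. Csf2, a cytokine gene, was at 144 CPM in Ramp1-positive and 71.9 CPM in Ramp1-negative cells.

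The wider neuropeptide pathway was read from gene lists, counting members with at least 20 UMIs. Over all genes with that many UMIs, 5.57% were at least 2-fold higher in set 2 and 7.90% at least 2-fold lower. Those shares stand beside each list below, and most lists are too short for a share of their own to be precise. Of 3 calcitonin family ligand genes, none was at least 2-fold higher in set 2 and 2 were lower: Calca, and Calcb, which encodes a second form of CGRP, with 3 UMIs in set 2 and 75 in set 1. Of 6 family receptor genes, Ramp1 was higher and Ramp2 lower, the Ramp2 call being lost with TMM scaling (log2 ratio -0.98, against -1.04 without it). Among 4 neuropeptide and opioid receptors, Npy1r (4.66 CPM in set 2, 0.30 CPM in set 1), a neuropeptide Y receptor, and Vipr1, a second VIP receptor (3.27 CPM in set 2, 0.85 CPM in set 1), were higher and none was lower. Of 5 neuropeptide ligands, Grp (4 UMIs in set 2, 79 in set 1) and Gal (0 UMIs in set 2, where a count of 0 allows 3, and 21 in set 1) were lower.

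Genes that process and release peptides went both ways. Of 10 such genes, 3 were higher and 2 lower. Furin, a proprotein convertase, was at 1261 CPM in set 2, against 401 CPM in set 1, while Pcsk1, the convertase of the regulated secretory path, was at 6.10 CPM in set 2, against 64.2 CPM in set 1. Rab27b was at 6.88 CPM in set 2, against 72.7 CPM in set 1.

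Of 10 neurotransmitter receptor genes, Gabbr1 (50.1 CPM in set 2, 20.04 CPM in set 1) and Chrnb1 (2.94 CPM in set 2, 0.91 CPM in set 1) were higher and the serotonin receptor gene Htr1b was lower, with 1 UMI in set 2 and 79 in set 1. Of 3 enzymes that make small neuromediators, Tph1, which starts serotonin synthesis, was higher, at 27.4 CPM in set 2, against 7.08 CPM in set 1. Ddc (0.67 CPM in set 2, 3.27 CPM in set 1) and the histamine enzyme gene Hdc (6.10 CPM in set 2, 15.5 CPM in set 1) were lower. Mast cells also make Tph1 and Hdc, and 6 mast cell markers, among them Kit, summed to 160.0 CPM in set 2 (with Cma1, Tpsb2 and Mrgprb2 at 0), against 191 CPM in set 1. Their part in the result was not tested.

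Of 22 genes of cAMP signalling, 17 were within 2-fold. Pde4a, a phosphodiesterase that degrades cAMP, was at 69.8 CPM (66.0 to 73.8) in set 2, against 6.72 CPM (5.53 to 8.09) in set 1, a ratio of 10.4 that is close to that of Ramp1. Pde7a was higher as well, at 137 CPM in set 2, against 44.6 CPM in set 1, whereas Pde4d (20.9 CPM in set 2, 54.7 CPM in set 1) and Pde3b (50.1 CPM in set 2, 122 CPM in set 1) were lower. The list's median log2 ratio was 0.27.

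Of 14 genes known to be induced by cAMP, 3 were higher, 2 lower and 9 within 2-fold, with a median log2 ratio of 0.41. Crem, Pde4b and Pde4d are also in the list of cAMP signalling, and Pde4d is counted as lower in both lists. Nr4a3 was at 308 CPM in set 2, against 97.7 CPM in set 1, Fosb at 587 and 197 CPM in the same order, and Nr4a2, of the same nuclear receptor family as Nr4a3, at 150.1 CPM in set 2, against 385 CPM in set 1. Crem was within 2-fold, at 665 CPM in set 2, against 444 CPM in set 1.

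**Figure D5:**
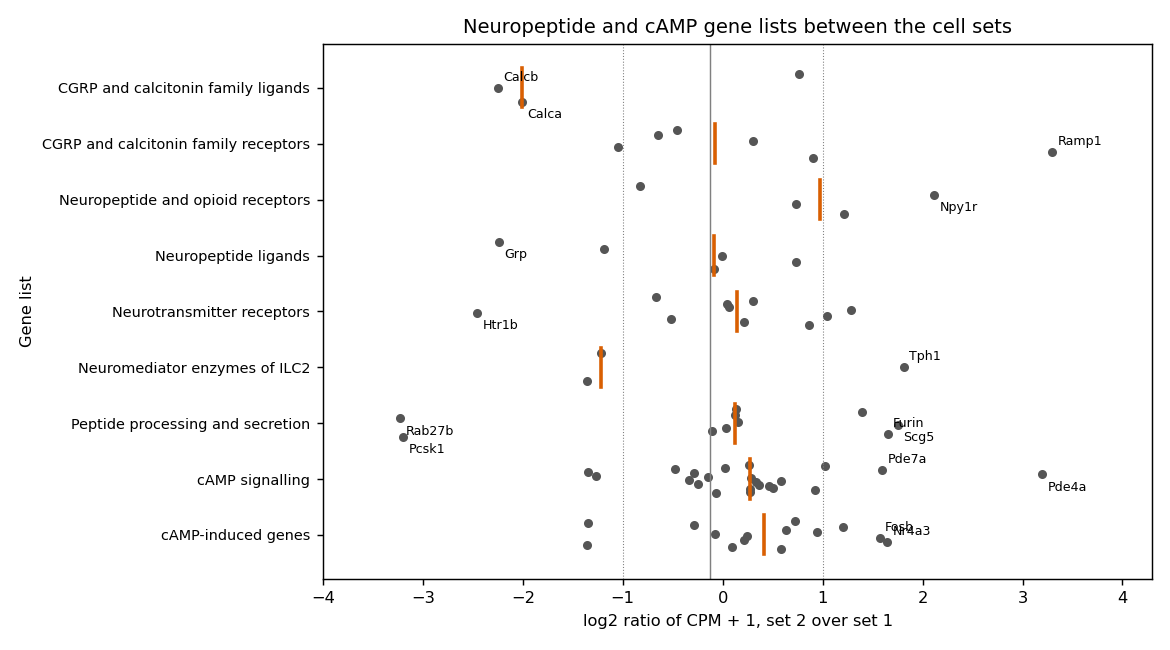
Log2 ratio of CPM + 1, set 2 over set 1, of the members of each gene list with at least 20 UMIs (grey points), with the list's median (orange bar), the median of all genes at -0.13 (solid line) and 2-fold limits (dotted lines). Ramp1 (3.30) and Pde4a (3.20) lie farthest to the right and Rab27b (-3.23) and Pcsk1 (-3.20) farthest to the left, and genes past 1.5 on either side are named.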

How the data were processed

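The deposited table holds the authors' UMI counts per gene and cell, whole numbers with no scaling. The submitters' processing notes name the mm10 build, Seurat 4.1.0 and Cell Ranger 3.1.0, with settings not given in the sources used here. No sample-level column was left unused. Set totals were 18026148 UMIs in set 2 and 16514632 in set 1.

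Cells with at most 10% mitochondrial UMIs were kept. Scanpy 1.11.5 clustered them (2000 variable genes, 30 components, 15 neighbours, resolution 0.5). Scrublet called 0 doublets in set 2 and 7 in set 1 (0.141% of cells), too few to have worked, and doublets were kept. CPM carry exact Poisson, shares exact Clopper-Pearson and ratios exact binomial intervals; a count of 0 allows 3 UMIs. With 1 library per day, no test was run. Alternatives used TMM factors (edgeR 4.0.16), thinning, other limits and other clusterings.

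The genes and lists were chosen with earlier results of these data known. Named genes are up to 4 per list by size of ratio, the 8 highest and 3 lowest correlations with Calca and Ramp1, and 8 by ratio in positive over negative cells. Examples, cluster markers, Areg and Gata3 over the Calca steps, Il13 and the Il22 comparison were chosen after their values were seen.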

Additional observations from a re-analysis of the deposited data

Results flagged for a closer look

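Cells above the mitochondrial limit are left out of the values in the report and enter only the alternative with no such limit. Some of these transcripts stood there above the level that a count of 0 allows, 10.3 CPM in set 2, against 32.8 CPM in set 1. These cells numbered 267 in set 2, with a median of 898 UMIs, and 30 in set 1, with a median of 2270 UMIs. Calca was at 209 CPM (160 to 268) in those of set 2 and 317 CPM (212 to 455) in those of set 1. Ramp1 was at 37.7 CPM (18.8 to 67.4) in those of set 2, from 11 UMIs. Calcrl was at 68.5 CPM (41.8 to 106) in those of set 2, from 20 UMIs. Ramp3 was at 479 CPM (403 to 566) in those of set 2 and 197 CPM (117 to 311) in those of set 1. Ramp1 (1 UMI) and Calcrl (2 UMIs) of set 1 lay below that level, Vipr2 had 3 UMIs in set 2 and 0 in set 1, and Penk had 0 in both.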

How the results depend on the processing

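The log2 ratios of Calca, Ramp1, Calcrl and Vipr2 kept their sign under the alternatives that were run, and that of Penk did not. The log2 ratio of Calca, -2.01, was -1.86 with TMM factors, -1.77 in thinned cells, -2.09 with a 5% mitochondrial limit, -1.85 as a mean over cells, -2.09 without the cycling cluster, -1.88 in cells with Xist only and -1.84 in cells with Y-linked genes only. That of Ramp1, 3.30, was 2.97 in thinned cells, 2.96 as a mean over cells, 3.01 without the cycling cluster, 2.84 with CPM + 10 and 3.64 in cells with Y-linked genes only. That of Calcrl, 0.90, was 0.72 with CPM + 10, and passed 2-fold with TMM factors (1.05) and without the cycling cluster (1.07). Observed over expected cells with Calca and Ramp1 was 1.05 in set 2 and came to 0.974 within depth bins and 0.928 in thinned cells, on the other side of 1. In set 1, where the plain value was 0.525, it came to 0.314 in thinned cells, 0.719 within clusters, 0.704 within clusters and depth bins (added after seeing the data) and 0.260 with at least 2 UMIs of each gene. With CPM + 10, 233 genes were at least 2-fold higher and 222 lower, in place of 670 and 950. TMM factors moved the median gene by 0.14 (log2). The log2 ratio of Penk ranged from -2.04 to 0.50 over its alternatives, so its order is not known.

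No paired analysis was possible because each day has 1 library and the cell names carry no replicate number. The suffix of a cell cannot be told apart from library, depth or day here. Shallow cells limit the rare classes: a count of 0 allows 0.086% of cells in set 2 and 0.21% in set 1, a limit on cells with a UMI and not on cells expressing the gene. Undetected doublets can put ligand and receptor in 1 barcode, and their share was not measured. Clusters made without any calcitonin family gene, an alternative added after seeing the data, gave 910.0 CPM of Calca in the cluster matching cluster 2 of set 1.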

Other observations

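Adrenomedullin, a peptide of the same family, has its gene Adm among those measured. Adm was at 25.6 CPM (23.3 to 28.0) in set 2, against 14.7 CPM (12.9 to 16.6) in set 1, a ratio of 1.75. In set 2 it was highest in cluster 1, at 62.5 CPM, against 15.9 CPM in cluster 0, so over these clusters it ran opposite to Ramp3 (134 CPM in cluster 1, 952 CPM in cluster 0). Adm met Ramp3 in 99 cells of set 2 against 124 expected and in 79 cells of set 1 against 82.6 expected. It met Calcrl in 51 cells of set 2 against 35.9 expected and in 27 cells of set 1 against 23.9 expected. Within depth bins the ratios for Adm and Calcrl were 1.29 in set 2 and 1.09 in set 1.

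For Calcrl, the highest correlations over thinned cells were those of Rora (0.12), a transcription factor gene of ILC2s, and Kit (0.11) in set 2, and of Cd74 (0.10) in set 1, none of which is strong.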
